A study of Mus musculus with 16 samples.

Results

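The 10 genes described here are the Notch receptors Notch1, Notch2 and Notch3, the ligands Dll1, Jag1 and Jag2, the DNA-binding factor Rbpj and the targets Hes1, Hey1 and Heyl. They were taken by gene symbol from the 31053 genes of an mRNA sequencing table, and each symbol matched 1 row. The table covers 16 samples of C2C12, a mouse muscle cell line whose dividing myoblasts stop cycling and fuse into multinucleated myotubes. There were 4 biological replicates in each of 4 groups, namely WT myoblasts and WT myotubes, and the same stages of cells lacking Fam134b, an ER-phagy receptor. According to the methods, the Fam134b KO cells were made with lentiviral CRISPR-Cas9, followed by antibiotic selection. A pair of guide RNAs was cloned into the vector, and 4 guides for Fam134b are listed among the reagents. The sources used here do not say whether the KO cells were 1 clone or whether the WT cells carried a vector, so the KO and its cell line cannot be told apart. Both stages were kept in the same growth medium, and differentiation followed from confluence. Genotype and stage come from the sample titles, because a separate label field gives the genotype as unknown for every sample.

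Notch is a receptor that is cut when a ligand on a neighbouring cell pulls on it. The freed intracellular part enters the nucleus, joins Rbpj on DNA and switches on genes such as those of the Hes and Hey families, which encode transcriptional repressors. In skeletal muscle, Notch signalling is known for keeping satellite cells, the stem cells of muscle, undifferentiated, and forced Notch activity holds back the differentiation of myoblasts.

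In the mouse annotation (GENCODE M21, build GRCm38), the receptor genes lie on chromosome 2 (Notch1, 26457903 to 26516663, minus strand), chromosome 3 (Notch2, 98013527 to 98150361, plus strand) and chromosome 17 (Notch3, 32120820 to 32166852, minus strand). Among the ligands, Dll1 lies on chromosome 17 (15367354 to 15376872), Jag1 on chromosome 2 (137081456 to 137116644) and Jag2 on chromosome 12 (112907819 to 112929776), all on the minus strand. Rbpj covers 53466152 to 53657362 of chromosome 5 on the plus strand. Hes1 lies on chromosome 16 (30064384 to 30067796, plus strand), Hey1 on chromosome 3 (8663359 to 8667256, minus strand) and Heyl on chromosome 4 (123233556 to 123249875, plus strand). Exons of Notch1 (0610009E02Rik and Gm13568), Notch3 (Gm17276) and Dll1 (A930024N18Rik) share bases with genes on the opposite strand, and those of Notch2 with Gm42820 on the same strand. The sources used here do not say whether reads were counted by strand, so reads of these pairs may not have been told apart.

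Promoter windows, the 250 bases before an annotated start, were at hand for 7 of the 10 genes, with 9 start sites in all. Each was searched on both strands for TGGGAA, the core letters bound by Rbpj, and for the E-box CANNTG, the letters bound by myogenic factors such as MyoD. The core letters stood in the windows of 1 member, Rbpj, and in 21.6% of 32851 mouse windows of the same length. E-box letters stood in the windows of 3 members (Dll1, Jag1 and Rbpj) and in 66.2% of all windows. A match is a description of letters and not a binding site. A pair of windows is shown, that of Notch3, the receptor that was lower in KO myotubes, which held no match, and a stretch of that of Rbpj, with the matching letters in capitals. Both are from RefSeq (GRCm38.p6), written 5′ to 3′ on the strand of the gene. The Notch3 window is chr17:32166891-32167140 (minus strand) and the Rbpj stretch, which ends where the annotation places an exon, is chr5:53590096-53590213 (plus strand).
Notch3: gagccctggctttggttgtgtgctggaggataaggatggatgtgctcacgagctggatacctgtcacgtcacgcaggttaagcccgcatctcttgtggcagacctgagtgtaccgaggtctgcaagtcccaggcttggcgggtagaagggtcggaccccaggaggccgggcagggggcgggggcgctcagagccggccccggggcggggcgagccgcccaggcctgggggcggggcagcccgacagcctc
Rbpj: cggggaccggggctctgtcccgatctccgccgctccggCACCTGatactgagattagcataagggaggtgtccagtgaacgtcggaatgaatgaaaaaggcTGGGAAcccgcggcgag

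Values are normalized counts, the reads of a gene divided by a factor of its sample. Each sample held 1484750 to 3287461 reads on genes, with the lowest totals in KO myotube replicates 4 (1484750) and 2 (1790524). Fam134b itself was lower in KO cells at both stages (log2 fold change -2.86 in myoblasts and -2.46 in myotubes, limma, adjusted p = 2.95e-08 and 9.85e-07). In WT cells the summed normalized count of 7 myotube markers was 636 to 1064 in myoblasts and 14287 to 20482 in myotubes. In KO cells it was 9.18 to 16.6 in myoblasts, where Myog stood at 0 and 5 of the 7 markers had at most 3 reads, and 7789.8 to 10818 in myotubes. The sum of 8 myoblast markers did not fall with stage, being 1408 to 2345 in WT myoblasts and 4012 to 5822 in WT myotubes, and 612 to 842 and 1690.5 to 2483 in KO cells. This list holds Des, which muscle cells in general express. Which of its genes carry the sum was not examined, so the sum does not measure how many cells stayed undifferentiated. The satellite cell marker Pax7, also on this list, was at 0 in all KO samples. It was low in WT cells too, with at most 3 reads in each myoblast sample and a mean normalized count of 3.70 in myotubes. All 7 endothelial markers had at most 3 reads in every sample. In bulk samples, fewer cells of a type and less RNA per cell cannot be told apart.

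On differentiation of WT cells, 7 of the 9 testable members rose and none was called lower, where 13.8% of all genes tested were called higher and 9.16% lower (23% in all). In KO cells 5 members rose, again with none called lower, against 17.3% of all genes higher and 16.1% lower (33.4% in all). Compared with WT, 3 members were lower in KO myoblasts, where 8.5% of all genes were lower and 7.26% higher (15.8% in all). In KO myotubes 5 members were lower, where 13.7% of all genes were lower and 9.74% higher (23.4% in all), and no member was called higher at either stage. Dll1 was the member left untested, because testing needed a normalized count of 10 or more in 4 or more samples, which 10767 genes reached. Tests were made with limma on log2(normalized count + 1), and genes are named as called where the adjusted p over these genes (Benjamini-Hochberg) was under 0.05. The p-values measure the spread between replicates named as biological in the labels, without further detail.

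The members' median log2 fold change was 1.30 on differentiation of WT cells and 1.01 in KO cells, beside -0.01 and -0.02 for all genes tested. Between KO and WT it was -0.23 in myoblasts and -0.66 in myotubes, beside -0.01 and -0.07. At an unadjusted p under 0.05, limma gave 1 member (Hes1) lower in myotubes in each genotype and 0 members higher in KO cells at either stage. limma voom on the recovered reads gave the same counts of members called, 7, 5, 3 and 5, and the same genes. The members were chosen with earlier results of these data known, so these shares are a description. The plot of log2 fold changes shows each member in the 4 comparisons.

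**Figure D1:**
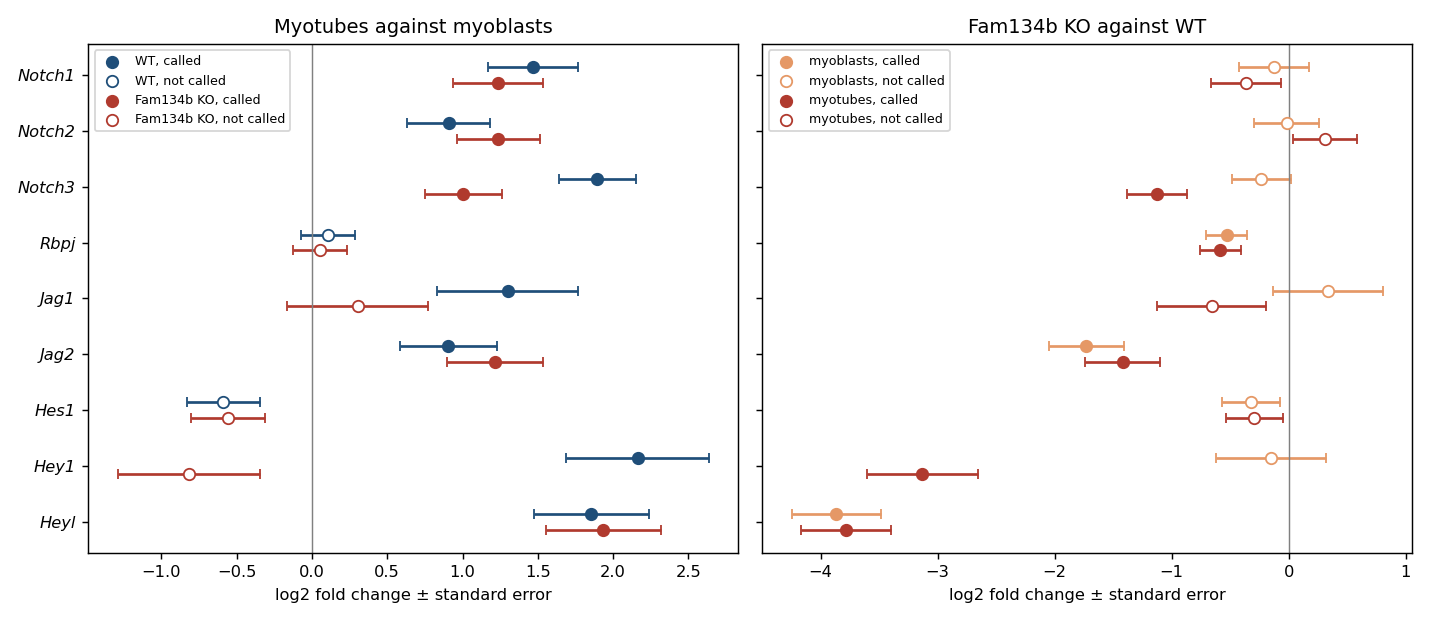
Log2 fold change (x axis) of the 9 tested members (y axis) between stages (left, WT blue, Fam134b KO red) and between genotypes (right, myoblasts orange, myotubes red). Points are limma estimates, bars are ± 1 standard error, and filled points were called. Notch1, Notch2, Notch3, Jag2 and Heyl lie to the right of 0 in both genotypes on the left, and Heyl lies near -4 at both stages on the right.

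Notch3, a receptor known from vascular mural cells and satellite cells, had normalized counts of 264, 279.7, 170.1 and 173 in WT myoblasts and of 756, 632, 893 and 985 in WT myotubes. In KO myoblasts they were 231, 107, 278 and 164, and in KO myotubes 457, 426, 268 and 356. Every WT myotube sample lay above all other samples, whereas the myoblasts of both genotypes overlapped and the lowest KO myotube sample fell inside the range of the KO myoblasts. Notch3 rose on differentiation 3.72-fold in WT cells (log2 1.89, standard error 0.25, limma adjusted p = 1.56e-05) and 2.01-fold in KO cells (log2 1.01, adjusted p = 0.00445). It was 2.18-fold lower in KO than in WT myotubes (log2 -1.12, standard error 0.25, adjusted p = 0.00287), while in myoblasts the difference of -0.23 was within the spread (adjusted p = 0.617). Its rise was smaller in KO than in WT cells by 0.89 on the log2 scale, and this difference was not called (adjusted p = 0.195, standard error 0.36). It was called with sample weights (-1.43, adjusted p = 0.00619) and without KO myoblast replicate 2, the lowest of its group (-1.15, adjusted p = 0.0458).

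Notch1, the receptor best known from T cells and neural progenitors, showed 28.6, 34.7, 29.0 and 22.3 in WT myoblasts and 84.6, 51.3, 115 and 82.2 in WT myotubes. KO myoblasts had 36.7, 14.9, 35.6 and 22.5, and KO myotubes 69.7, 55.4, 45.9 and 83.9. All myotubes lay above all myoblasts of their genotype, and at each stage the genotypes overlapped. The rise was 2.77-fold in WT cells (log2 1.47, standard error 0.30, adjusted p = 0.00132, limma) and 2.35-fold in KO cells (log2 1.24, adjusted p = 0.00324). Between genotypes, Notch1 differed by -0.13 in myoblasts and -0.36 in myotubes on the log2 scale (adjusted p = 0.840 and 0.418).

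Notch2, a receptor also found in satellite cells, stood at 67.4, 65.6, 49.0 and 32.1 in WT myoblasts and at 145, 67.5, 87.4 and 105 in WT myotubes. In KO cells it went from 44.6, 63.9, 69.4 and 33.4 in myoblasts to 145, 127, 109.8 and 106 in myotubes. The stages did not overlap in either genotype, although the lowest WT myotube sample (67.5) lay just above the highest WT myoblast sample (67.4). Notch2 rose 1.88-fold in WT cells (log2 0.91, standard error 0.28, limma adjusted p = 0.0218) and 2.36-fold in KO cells (log2 1.24, adjusted p = 0.00167). The WT call was lost without WT myotube replicate 1 (adjusted p = 0.0976) or 4 (0.0579) and without WT myoblast replicate 3 (0.0552) or 4 (0.0991). KO and WT overlapped at both stages, with log2 differences of -0.02 in myoblasts and 0.31 in myotubes (adjusted p = 0.980 and 0.452). Of the 3 receptors, Notch3 was the one called different between genotypes, and differences among the receptors were not tested.

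**Figure D2:**
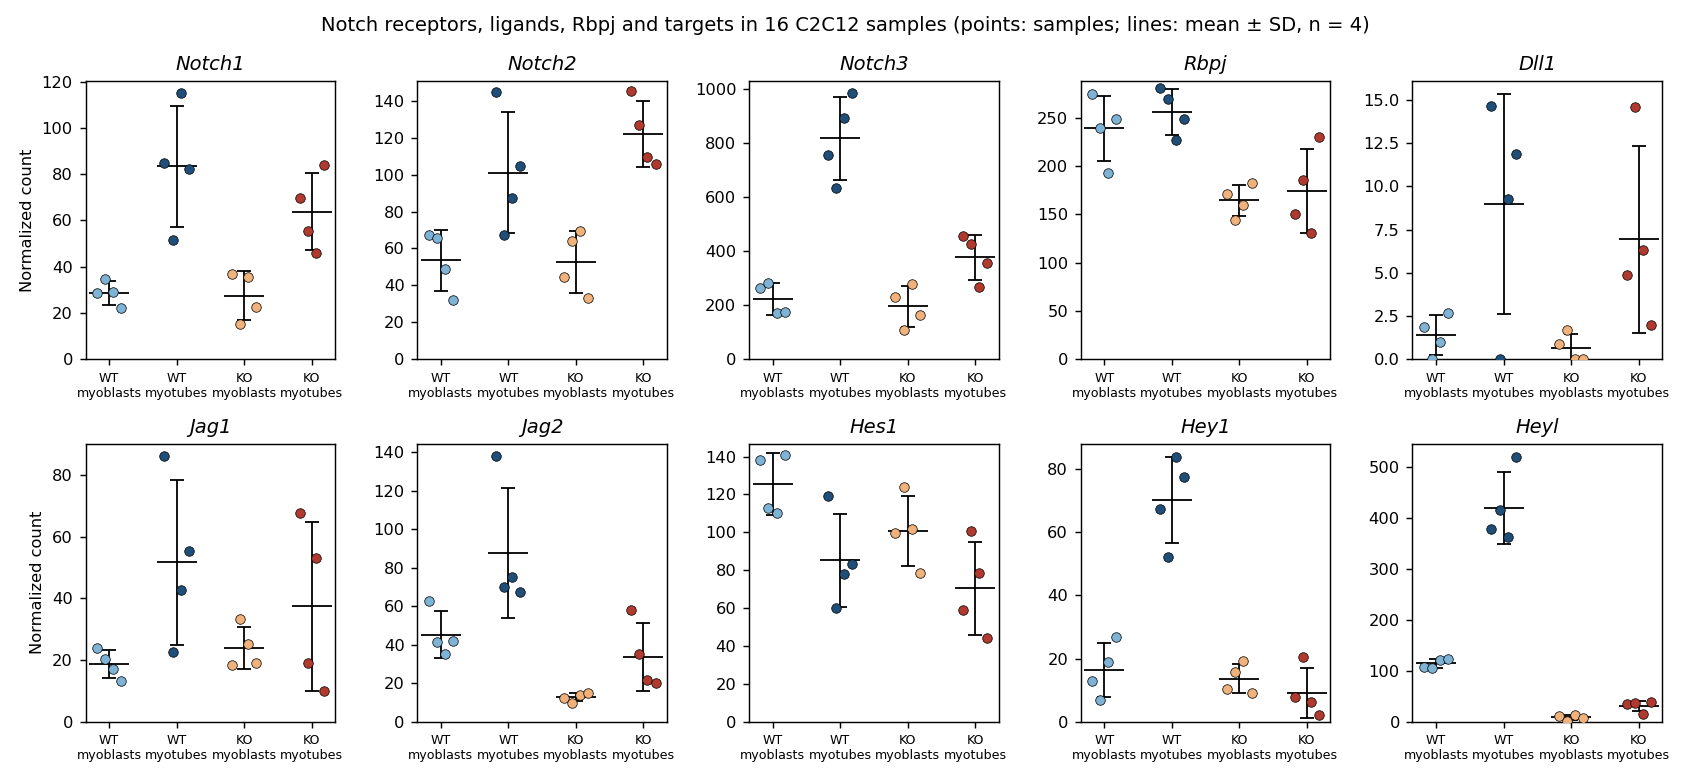
Normalized count (y axis, linear and starting at 0, own scale per gene) of each of the 10 members in the 4 groups (x axis), with 1 point per sample, the mean as a long line and bars of ± 1 SD (n = 4). Notch3 and Hey1 stand above the other groups in WT myotubes, and Heyl and Jag2 are low in KO myoblasts.

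Among the ligands, Jag2, a Serrate-type ligand, had normalized counts of 62.7, 41.5, 35.0 and 41.9 in WT myoblasts and of 138, 70.2, 75.3 and 67.4 in WT myotubes. In KO myoblasts it had 12.2, 9.96, 13.9 and 15.02, and in KO myotubes 58.1, 35.0, 21.6 and 19.98. Each KO sample lay below each WT sample of its stage, and each myotube sample above each myoblast sample of its genotype. Jag2 was 3.32-fold lower in KO myoblasts (log2 -1.73, standard error 0.32, adjusted p = 4.81e-04, limma) and 2.67-fold lower in KO myotubes (log2 -1.42, adjusted p = 0.00282). Both calls held under each of the 28 alternatives. On differentiation, it rose 2.32-fold in KO cells (log2 1.22, adjusted p = 0.00602). The rise in WT cells, 1.87-fold (log2 0.91, adjusted p = 0.0459), was called under 16 of 28 alternatives. WT myotube replicate 1 stood far above the others, and without it the log2 fold change was 0.67 (adjusted p = 0.191). The call was also lost without WT myotube replicate 3 or 4, WT myoblast replicate 2, 3 or 4, or KO myoblast replicate 1, 3 or 4 (adjusted p up to 0.133).

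Jag1, the other Serrate-type ligand, showed 24.0, 20.3, 17.0 and 13.4 in WT myoblasts and 86.3, 22.5, 42.8 and 55.5 in WT myotubes. KO myoblasts had 18.4, 33.2, 25.2 and 19.2. KO myotubes split into high samples, replicates 1 and 3 with 67.8 and 53.1, and low ones, replicates 2 and 4 with 19.0 and 9.99. The low pair are also the libraries with the fewest reads, in which Jag1 rested on 13 and 5 reads, and the part of depth in this split was not tested. In WT cells Jag1 rose 2.46-fold (log2 1.30, standard error 0.47, limma adjusted p = 0.0491) with overlapping groups, a call kept under 14 of 28 alternatives. It was lost without WT myotube replicate 1 (log2 1.01, adjusted p = 0.186), 3 or 4, without any WT myoblast replicate, and without any KO myoblast replicate, the last of which enter through the shared spread. For KO cells the log2 fold change on differentiation was 0.31 (adjusted p = 0.649), and 1.33 (adjusted p = 0.0145) without KO myotube replicates 2 and 4, an alternative chosen after the data were seen. Against WT myotubes it was -0.66 (adjusted p = 0.335) with these samples and 0.36 (adjusted p = 0.558) without them. Leaving out the same pair gave 6 called members in place of 5 between the KO stages, Jag1 being the one added, and 5 in KO against WT myotubes.

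Dll1, a Delta-type ligand known to be expressed by differentiating muscle cells, was near the limit of detection, set at 3 reads. It had 1.85, 0, 1.00 and 2.67 in WT myoblasts and 0.875, 1.66, 0 and 0 in KO myoblasts, at most 3 reads in each. In WT myotubes it had 14.7, 0, 9.29 and 11.9, and in KO myotubes 4.84, 14.6, 6.30 and 1.998. In each genotype 3 of the 4 myotube samples lay above the myoblasts and above 3 reads, while WT myotube replicate 2 held no read, which allows up to 3 reads there, and KO myotube replicate 4 held 1 read. Taking 3 reads per library as the level of the myoblasts, the mean was at least 3.16-fold higher in WT myotubes and at least 2.71-fold higher in KO myotubes. Without KO myotube replicate 2, the highest, the latter was at least 1.71-fold, an alternative chosen after the data were seen. Such limits cover counting error only, and the difference was not tested. The other Delta-type ligands Dll3 and Dll4, and the related Dlk1, had at most 3 reads in every sample.

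Rbpj, the DNA-binding factor on which the signals of all Notch receptors converge, had normalized counts of 275, 239, 193 and 249 in WT myoblasts and of 281, 269, 227 and 249 in WT myotubes. In KO myoblasts they were 171, 144, 159.6 and 183, and in KO myotubes 150.1, 185, 130.5 and 229.8. All KO myoblasts lay below all WT myoblasts, and of the KO myotubes replicate 4 alone reached into the WT range. No change on differentiation was called, with log2 fold changes of 0.11 in WT and 0.05 in KO cells (adjusted p = 0.712 and 0.844, limma). Against WT, Rbpj was 1.45-fold lower in KO myoblasts (log2 -0.53, standard error 0.18, adjusted p = 0.0444) and 1.5-fold lower in KO myotubes (log2 -0.58, adjusted p = 0.0202). The myoblast call was kept under 16 of 28 alternatives. It was lost without any single KO myoblast, without WT myoblast replicate 1, 2 or 4 and without WT myotube replicate 3 or 4 (adjusted p up to 0.137). The myotube call was lost without KO myotube replicate 1 (adjusted p = 0.0521) or 3 (0.0728) and with only the 8 samples compared (0.0800).

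Of the targets, Heyl, a Hey-family repressor expressed in satellite cells and vascular smooth muscle, had 108, 105, 120.1 and 124 in WT myoblasts and 378, 416, 362 and 519 in WT myotubes. In KO cells it had 10.5, 1.66, 13.9 and 7.51 in myoblasts and 33.9, 36.5, 15.3 and 38.0 in myotubes. No groups overlapped, and every KO sample of either stage lay below every WT sample of either stage. Heyl was 14.6-fold lower in KO myoblasts (log2 -3.87, standard error 0.38, limma adjusted p = 1.32e-07) and 13.8-fold lower in KO myotubes (log2 -3.78, adjusted p = 7.09e-07). In KO myoblasts it rested on 2 to 16 reads per sample, against 109 to 139 in WT myoblasts. It rose on differentiation from its level in each genotype, 3.62-fold in WT (log2 1.85, adjusted p = 0.00139) and 3.83-fold in KO cells (log2 1.94, adjusted p = 5.23e-04), and the log2 rises differed by 0.08 (adjusted p = 0.962, standard error 0.54). Each of these 4 calls held under all 28 alternatives.

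Hey1, a related repressor that responds to Notch in many cell types, showed 12.9, 6.75, 19.0 and 26.7 in WT myoblasts and 67.3, 52.2, 83.6 and 77.3 in WT myotubes. KO myoblasts had 10.5, 15.8, 19.1 and 9.18, and KO myotubes 7.75, 20.4, 6.30 and 1.998. WT myotubes stood above all other samples, and the remaining 3 groups overlapped. Hey1 rose 4.48-fold in WT cells (log2 2.16, standard error 0.47, limma adjusted p = 0.00233) and no change was called in KO cells, where the log2 fold change was -0.82 (adjusted p = 0.191). Without KO myotube replicate 2, the highest of its group, the KO value was -1.29 and was called (adjusted p = 0.0240). In KO myotubes Hey1 was 8.75-fold lower than in WT myotubes (log2 -3.13, adjusted p = 6.72e-05), while in myoblasts it differed by -0.15 (adjusted p = 0.886). The KO myotube values rested on 1 to 14 reads per sample, and folds of log2(value + 1) understate changes at such levels.

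Hes1, the target most often read as a sign of Notch activity, did not pass the test in any comparison. It had 138, 113, 110.1 and 141 in WT myoblasts, 119, 60.3, 78.1 and 83.2 in WT myotubes, 99.7, 124, 102 and 78.4 in KO myoblasts and 59.1, 101, 78.3 and 44.0 in KO myotubes. Most myotube samples lay under most myoblast samples in both genotypes, and all groups compared overlapped. The log2 fold change on differentiation was -0.59 in WT cells (standard error 0.24, adjusted p = 0.0882, limma) and -0.56 in KO cells (adjusted p = 0.0837). The first was called under 5 of 28 alternatives, among them without WT myotube replicate 1 (-0.76, adjusted p = 0.0448), and the second without KO myotube replicate 2 (-0.75, adjusted p = 0.0206). KO and WT differed by -0.32 in myoblasts and -0.29 in myotubes (adjusted p = 0.438 and 0.422). Of the other targets listed, Hes2, Hes3, Hes5 and Hey2 had at most 3 reads in every sample.

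**Figure D3:**
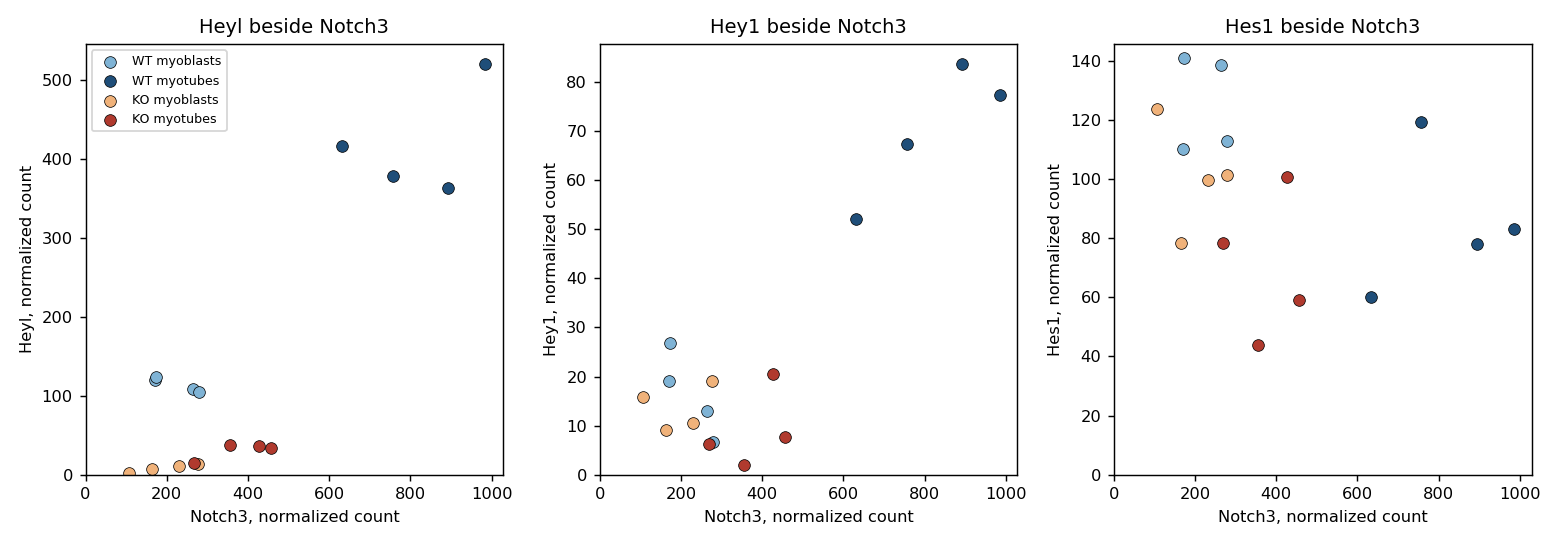
Normalized count of Heyl (left), Hey1 (middle) and Hes1 (right) on the y axes against that of Notch3 on the x axes, 1 point per sample (n = 4 per group, both axes linear from 0). WT myotubes stand apart at the upper right for Heyl and Hey1 but not for Hes1, and KO samples (orange and red) keep Heyl at or below 38.0 while their Notch3 spans 107 to 457.

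The plot of the targets beside Notch3 sets KO myotubes next to WT myoblasts, which differ in both genotype and stage. The lowest KO myotube value of Notch3, 268, exceeded 3 of the 4 WT myoblast samples, whereas the highest KO myotube value of Heyl, 38.0, was under the lowest WT myoblast value, 105. As the samples form separate groups, no correlation is given. Of the marker lists of other cells, that of mural cells had lower sums in KO than in WT cells at both stages, whereas Notch3 and Hey1 were called lower in myotubes only. The fibroblast sum was not lower in KO cells, with 2260 to 4592 in WT and 3023 to 11547 in KO myoblasts. The summed normalized count of 8 mural cell markers, 4 of which (3 in KO myoblasts) had at most 3 reads in each sample, was 500.0 to 767 in WT and 188 to 303 in KO myoblasts, and 972 to 1312 in WT and 419.6 to 614 in KO myotubes. Kcnj8 was at 0 in the myotubes of both genotypes and Myh11 and Abcc9 in the myoblasts of both. That list holds Des, which muscle cells express too. Myotube and myoblast markers also stayed below the WT range in KO cells at both stages, as given above. The part of these marker lists in the lower Heyl, Notch3, Hey1 and Jag2 was not tested.

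Whether genotype changed the response to differentiation was tested for each member by the interaction of genotype and stage. Hey1 was the 1 member of 9 called, its log2 change being lower by 2.98 in KO than in WT cells (standard error 0.67, adjusted p = 0.0140, limma). Of all genes tested, 3.45% were called, 1.97% higher and 1.48% lower. At an adjusted p under 0.05 the call on Hey1 held under each of 27 alternatives, with values from -3.45 to -2.41, and at 0.01 it was lost. The remaining members had interactions from -0.996 (Jag1, adjusted p = 0.463) to 0.33 (Notch2, adjusted p = 0.717), which does not show that they responded alike. At an unadjusted p under 0.05 there were 2 members, Hey1 and Notch3, both lower, and 0 higher. The plot of the change in each genotype sets the members' responses side by side.

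**Figure D4:**
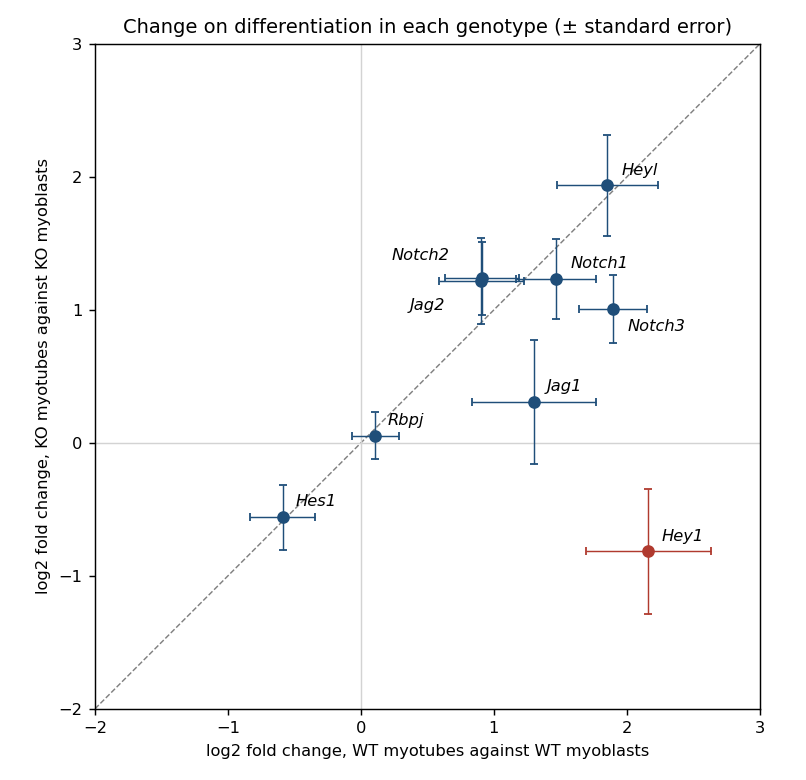
Log2 fold change on differentiation in KO cells (y axis) against that in WT cells (x axis) for the 9 tested members, with bars of ± 1 standard error and the line of equal change dashed. Hey1 (red), the member with a called interaction, lies at 2.16 in WT and -0.82 in KO cells, and Heyl and Rbpj lie near the line.

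Separation of the groups was also counted sample by sample. In WT cells 6 of the 9 members had all myotubes above all myoblasts (16.1% of all genes tested), and in KO cells 4 members did (14.3%). All KO samples lay below all WT samples for 3 members in myoblasts (14% of all genes) and for 4 in myotubes (10.8%). Jag2 and Heyl were below WT at both stages, Rbpj in myoblasts, and Notch3 and Hey1 in myotubes. Within groups, the members were not spread evenly over libraries. WT myotube replicate 2 had the lowest value of its group for 6 of the 9 members and replicate 1 the highest for 5, while KO myoblast replicate 2 and KO myotube replicate 4 had the lowest for 5 each, the latter also the highest for 3.

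The wider pathway was read through a list of further genes, 95 of which were in the table and 73 of which were tested. The called genes ran in both directions. Between stages 14 of the 73 rose and 4 fell in WT cells (13.8% and 9.16% of all genes tested), and 19 rose and 6 fell in KO cells (17.3% and 16.1% of all genes). Between genotypes 6 were higher and 6 lower in KO myoblasts (7.26% and 8.5% of all genes), and 10 higher and 10 lower in KO myotubes (9.74% and 13.7%). The counts between genotypes are near these shares of all genes. Notch4, the remaining receptor, was not tested and had a normalized count of at most 13.99 in any sample. The median log2 fold change of the 73 genes was 0.23 in WT and 0.20 in KO cells on differentiation, 0.03 between myoblasts and 0.09 between myotubes, against medians of -0.01, -0.02, -0.01 and -0.07 for all genes.

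Among genes acting on the ligands, the ubiquitin ligase Neurl1a, which drives ligand endocytosis, had 153, 129, 163 and 173 in WT myoblasts and 51.6, 46.5, 51.2 and 55.9 in KO myoblasts. In myotubes it had 339, 394, 677 and 545 in WT and 152, 175, 166 and 209.8 in KO cells. Neurl1a thus stood lower in KO cells at both stages without overlap (log2 -1.57 and -1.43, limma adjusted p = 3.50e-06 and 2.11e-05) and rose on differentiation in both genotypes (1.61 and 1.75). Its relative Neurl1b went the other way between genotypes, with 4.00 to 11.1 in WT and 34.7 to 127 in KO myoblasts (log2 2.88, adjusted p = 1.59e-05) and with 1.61 in myotubes (adjusted p = 0.00571). Of the 6 genes of ligand endocytosis, 2 were called higher and 1 lower in KO myoblasts, and 2 in each direction in KO myotubes.

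Of the secreted or surface proteins described as noncanonical ligands, all 4 that could be tested (Thbs2, Mfap5, Nov and Postn) were called higher in KO than in WT myotubes, where 9.74% of all genes were. The call on Nov (log2 1.99, adjusted p = 0.0382) held under 17 of 27 alternatives and was lost without KO myotube replicate 1, 2 or 4 or WT myotube replicate 2, 3 or 4 (adjusted p up to 0.118). Of the untested genes of this group (Dner, Cntn1, Mfap2 and Egfl7), Egfl7 went the other way, with 9.29 to 11.7 in WT myotubes and at most 2 reads in each KO myotube sample, at least 2.53-fold lower. Thbs2, thrombospondin 2, went from 169, 40.5, 85.5 and 93.1 in WT myotubes to 834, 658, 394 and 432 in KO myotubes, without overlap (log2 2.67, standard error 0.37, adjusted p = 2.58e-05, limma). In myoblasts it differed by 1.23 (adjusted p = 0.0258), a call lost without KO myoblast replicate 1 or 3 or WT myoblast replicate 3 or 4 (adjusted p up to 0.110). The 4 tested genes are also expressed by fibroblasts. Their markers, 6 in number and at least 3 of them at 3 reads or fewer in every group, summed to 10007 to 16317 in WT and 12295 to 24909.7 in KO myotubes, with Dpt at 0 in both, and their part was not tested.

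Genes of receptor cleavage were called higher on differentiation for 3 of 9 in each genotype (13.8% of all genes in WT and 17.3% in KO cells), such as nicastrin, Ncstn, in WT cells (log2 1.57, adjusted p = 0.0191) and presenilin 2, Psen2, in KO cells (1.17, adjusted p = 0.0472). The call on Psen2 in KO cells held under 14 of 27 alternatives (adjusted p up to 0.150), being lost without KO myotube replicate 1, 2 or 3, KO myoblast replicate 1, 3 or 4, WT myotube replicate 3 or WT myoblast replicate 2 or 3. That on Ncstn was lost without WT myotube replicate 1 or 4 or WT myoblast replicate 4 (adjusted p up to 0.0907). In KO myotubes the gamma-secretase subunit Psenen was lower (log2 -1.53, adjusted p = 0.00609, limma). Psenen had 72.5, 63.9, 59.5 and 51.5 in WT myotubes and 22.3, 48.2, 13.5 and 11.99 in KO myotubes. In KO myoblasts the protease Furin was lower (-0.58, adjusted p = 0.0339), a call lost without KO myoblast replicate 1, 2 or 4 or WT myoblast replicate 1, 3 or 4 (adjusted p up to 0.109). The coactivators of the Mastermind and acetyltransferase groups gave 0 calls of 8 between genotypes at either stage, also at an unadjusted p under 0.05. Of 19 corepressors, 1 was higher and 1 lower in KO cells at each stage, among them Tle2 in myoblasts (1.44, adjusted p = 0.0400) and Tle4 in myotubes (-1.20, adjusted p = 0.0406). The call on Tle2 held under 18 of 27 alternatives (adjusted p up to 0.144) and was lost without KO myoblast replicate 1, 3 or 4, WT myoblast replicate 1, 2 or 4 or WT myotube replicate 4. That on Tle4 held under 11 of 27 (adjusted p up to 0.317) and was lost by limma voom, without KO myotube replicate 4 (log2 -0.73), without any WT myotube, and without replicate 1 or 3 of either kind of myoblast. In receptor turnover the kinase Aak1 was higher in KO cells (1.04 in myotubes, adjusted p = 4.39e-04, and 0.59 in myoblasts, adjusted p = 0.0377, the latter lost without KO myoblast replicate 2, 3 or 4 or WT myoblast replicate 1, 3 or 4), and the deltex ligase Dtx3 rose on differentiation in both genotypes (1.60 and 1.65).

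**Figure D5:**
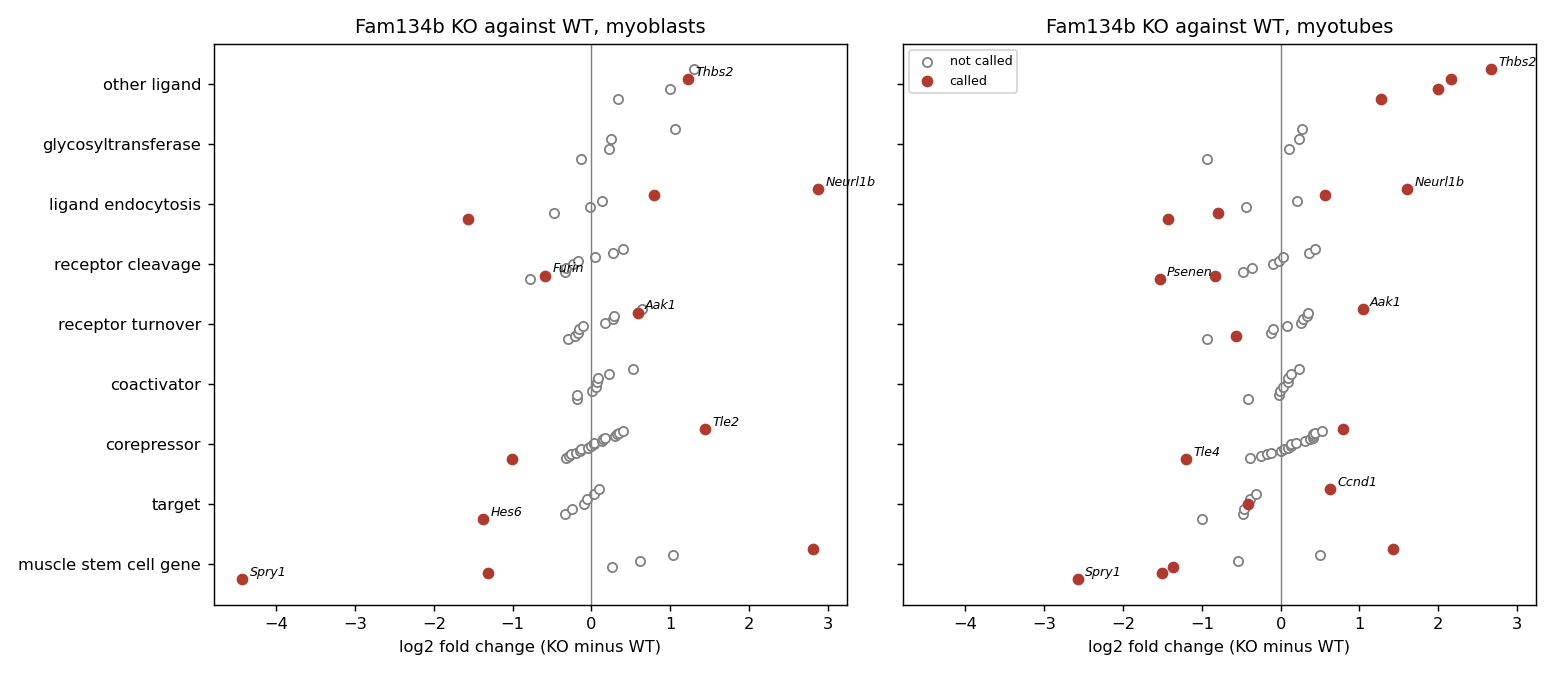
Log2 fold change of KO against WT (x axis) for the 73 tested genes of the wider Notch list, grouped by role (y axis), in myoblasts (left) and myotubes (right); red points were called, open points were not, and the called gene with the largest change in each role is named. Calls stand on both sides of 0 in each panel, and the 4 other ligands lie to the right in myotubes. The value of Spry1 in myoblasts depends on the added 1, because KO myoblasts held no read of it.

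Among further genes listed as targets was Hes6, a Hes-family member known to promote myogenic differentiation, whose response to Notch was not tested. Hes6 had 829.5, 733, 831 and 781 in WT myoblasts and 259.9, 352, 281 and 335 in KO myoblasts. It was lower there by 1.38 on the log2 scale without overlap (adjusted p = 2.56e-07, limma), and its rise in KO cells (1.34, adjusted p = 2.95e-07) was larger than that in WT cells by 0.97 (adjusted p = 0.00794). Cyclin D1, Ccnd1, which drives entry into S phase, fell by 1.94 in WT cells (limma adjusted p = 3.36e-07). A fall was also called in KO cells and held under all 28 alternatives (log2 -1.04 to -0.93). Ccnd1 was higher in KO than in WT myotubes by 0.63 (limma adjusted p = 0.0256). The latter call was lost without KO myotube replicate 3 or WT myotube replicate 1, 3 or 4 (adjusted p up to 0.0926). It was also lost with only the 8 samples compared (0.102) and without KO myotube replicates 2 and 4 together (0.0705). Lfng, a glycosyltransferase that modifies Notch receptors, had 50.7, 18.3, 61.6 and 31.7 in KO myoblasts and 7.75, 4.38, 8.10 and 4.00 in KO myotubes (log2 -2.47, adjusted p = 2.93e-05). In WT cells it had 16.6, 17.4, 21.0 and 14.3 in myoblasts and 8.63, 10.8, 13.01 and 16.8 in myotubes, a change that was not called. The log2 change of Lfng was lower by 1.99 in KO than in WT cells (limma adjusted p = 0.0390). This difference was called under 12 of 26 alternatives (adjusted p up to 0.115). It was lost without KO myotube replicate 4, KO myoblast replicate 1, 3 or 4, WT myotube replicate 3 or 4 or any WT myoblast.

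The list also held genes tied to Notch in muscle stem cells. Spry1, an inhibitor of receptor tyrosine kinase signalling, had 19.4, 18.3, 17.0 and 29.4 in WT myoblasts and no read in any KO myoblast sample. Against 3 reads per KO library it was at least 8.23-fold lower there. In myotubes it had 111, 36.9, 72.5 and 94.1 in WT and 12.6, 8.76, 15.3 and 9.99 in KO cells, again without overlap (log2 -2.57, adjusted p = 3.45e-05, limma). Its rise in KO cells was at least 4.56-fold. Col6a1, a collagen VI chain, rose most of these genes in WT cells (log2 3.42, adjusted p = 1.84e-07). Of the 6 tested genes, 1 was higher (Col6a1) and 2 lower (Megf10 and Spry1) in KO myoblasts, and 1 higher and 3 lower in KO myotubes, where the collagen V chain Col5a3 joined the lower ones. Calcr, the calcitonin receptor of quiescent satellite cells, had at most 3 reads in every sample.

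For each called member, the tested genes whose pattern over the 16 samples was most like it were found by the root mean square difference of log2 values after centring each gene. The smallest distances were those of Notch2 to Utrn (0.16 on the log2 scale) and Fzd2 (0.22) and of Rbpj to Fem1b (0.17) and Ppp2r3a (0.21). Notch3 was closest to Slc12a2 (0.23), an ion transporter whose mean normalized count went from 92.6 to 351 in WT cells and from 71.4 to 155 in KO cells, and to Jam3 (0.30). Notch1 was closest to Erlin2 (0.28) and Il6st (0.29), Jag1 to Vegfa (0.34) and Slc30a5 (0.35), and Jag2 to AI467606 (0.31) and Chrnb1 (0.38). For Hey1 and Heyl the distances were larger, the closest genes being Jph2 (0.77) and S1pr3 (0.78) for Hey1 and Cd200 (0.65) and Sulf1 (0.65) for Heyl. Cd200, a surface glycoprotein, had mean normalized counts of 185 and 369.9 in WT myoblasts and myotubes and of 9.84 and 33.6 in KO ones, next to 114 and 419 and to 8.39 and 30.9 for Heyl.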

How the data were processed

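mRNA was sequenced from 16 C2C12 samples, 4 per group, grouped by their titles. Per the labels and methods, libraries from total RNA (digital mRNA sequencing, single-end) were base-called with bcl2fastq, trimmed and cleared of rRNA and phiX with bbduk, aligned to mm10 with STAR 2.6.0a and counted per gene with HTSeq. The authors deposited log2 values, log2(normalized count + 1); the normalization tool and the strand setting are not given in the sources used here. With the log undone, all values were whole multiples of what 1 read is worth in their sample (tolerance 0.01 read), which gave reads, depth and floors of 3 reads per library. Floors cover counting error only.

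The 10767 genes that reached a normalized count of 10 in 4 or more samples were tested with limma 3.58.1 (R 4.3.3; lmFit, contrasts.fit, eBayes with a trend) in 1 model of 4 group means over 16 samples, with Benjamini-Hochberg adjustment over all tested genes. Such a model gives all groups 1 spread per gene. The script was tested on simulated data.

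The members, the pathway list (97 symbols for 95 genes) and the marker lists (myoblast, myotube, endothelial, mural, fibroblast, adipocyte, immune and glial) were chosen with earlier results of these data known. Adipocyte, immune and glial markers summed to at most 26.2, 11.2 and 20.0 normalized counts in any sample. Nov and Aes were in the table under these older symbols, and Ccn3 and Tle5, the newer symbols of these 2 genes, were listed too. Named genes were the members, the called pathway gene with the largest absolute log2 fold change in each role and comparison, listed genes with at most 3 reads in every sample, the 2 genes most like each called member, and Fam134b. Further pathway genes named in a count (Mfap5, Nov, Postn, Megf10, Notch4, Egfl7, and Neurl1a and Spry1 in further comparisons) were chosen after their values were seen, and 1 listed gene is not reported here. Deviations of same-numbered samples from their group means correlated at -0.223 to 0.369 (over 0.1 in 10 of 24 pairs), so replicate numbers were not taken to pair samples. Alternatives were pseudocounts of 0.5 and 5, no filter, a minimum of 50, total, quantile and median-ratio scaling, a replicate block, sample weights, limma voom on the recovered reads, a fit to only the 8 samples of a comparison, calls at 0.01, calls limited to log2 fold changes of 1 or more in size, each sample left out in turn, and, added after the data were seen, KO myotube replicates 2 and 4 left out together, and single samples left out of the lower limits of fold changes.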

Additional observations from a re-analysis of the deposited data

Results flagged for a closer look

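Of 40 groups of 4 samples examined (10 members in 4 groups), 3 held a sample far from the others, where its gap to the nearest sample divided by the range of the log2 values passed Dixon's 95% critical value. By chance about 1 group in 20 does so. Dll1 in WT myotube replicate 2 was at 0, against 9.29 to 14.7 in the other WT myotubes (gap over range 0.847). Jag2 in WT myotube replicate 1 had a normalized count of 138, against 67.4 to 75.3 (gap over range 0.846). Heyl in KO myotube replicate 3 had 15.3, against 33.9 to 38.0 (gap over range 0.873).

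A difference between genotypes in the response to differentiation was called by limma for Hey1 (-2.98, KO minus WT, on the log2 scale) among the members. In the wider pathway list it was called for Lfng (-1.99), Col5a3 (-2.40), Sin3a (1.42), Hes6 (0.97) and Spry1 (1.86). For Sin3a, a corepressor scaffold, WT samples had 83.0, 89.7, 89.1 and 71.3 in myoblasts and 32.8, 58.5, 47.4 and 54.5 in myotubes, whereas KO samples had 45.5, 43.2, 43.4 and 32.5 and then 60.0, 70.0, 65.7 and 57.9. Sin3a was called lower on differentiation in WT cells (-0.80, adjusted p = 0.00947) and higher in KO cells (0.62, adjusted p = 0.0284). The KO call held under 22 of 28 alternatives (adjusted p up to 0.0995) and the WT call under all 28. Col5a3 went from 36.5 to 86.7 up to 274 to 535 in WT cells and from 55.6 to 167 to 73.9 to 279 in KO cells. The value of Spry1 rests on KO myoblasts without a read and ranged from 0.11 to 3.09 over 26 alternatives, of which 7 called it.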

How the results depend on the processing

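Depth limits Dll1, Hey1 in KO myotubes and Heyl in KO myoblasts, which rest on few reads. Of 1251 values of members under the alternatives, 1159 kept their direction and their side of the threshold, 45 were no longer called, 10 became called and 37 changed sign; the causes were not tested. The calls on Heyl (4 comparisons), Hey1 (WT differentiation, KO against WT myotubes, interaction), Jag2 (KO differentiation, KO against WT at both stages), Notch1 and Notch3 (differentiation in both genotypes), Notch2 (KO differentiation) and Notch3 (KO against WT myotubes) held at an adjusted p under 0.05 under every alternative run, and with calls at 0.01 that on the interaction of Hey1 was lost. Those on Jag1, Jag2, Notch2 and Rbpj that did not are given above. For the 73 pathway genes tested and Fam134b together, 2052 of 2272 values of called genes kept their call, 220 lost it and 0 changed sign.

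Replicate numbers were not taken to pair the samples (deviations correlated at a mean of 0.0330 with the same number and -0.0108 with different ones). Same-numbered pairs ranged from -0.223 to 0.369, and such means cannot show that no samples were paired. With a replicate block, 2495 genes were called for WT and 3628 for KO differentiation, 1678 for KO against WT myoblasts, 2513 for myotubes and 358 for the interaction, with 7, 5, 3, 5 and 1 members and 18, 26, 12, 18 and 4 pathway genes. No call on a member changed.

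Sign changes were confined, among the members under these alternatives, to differences that were not called. With total scaling, Hes1 had an interaction of -0.029, Notch2 in KO against WT myoblasts 0.036 and Rbpj on KO differentiation -9.50e-04. With quantile normalization, Heyl had an interaction of -0.077 and Rbpj on KO differentiation -0.026. With sample weights, the interaction of Heyl was -0.66, KO against WT myoblasts gave 0.12 for Notch1 and 0.050 for Notch3, and Rbpj on KO differentiation gave -0.13. A pseudocount of 5 gave Heyl an interaction of -0.36. Without KO myotube replicates 2 and 4 together, the interaction was -0.26 for Heyl and 0.025 for Jag1, KO against WT myotubes gave 0.36 for Jag1, and KO differentiation gave -0.23 for Rbpj. Leaving out 1 sample at a time, interactions ranged from -0.16 to 0.23 for Hes1, -0.44 to 0.39 for Heyl and -0.20 to 0.073 for Rbpj, KO differentiation from -0.093 to 0.79 for Jag1 and -0.091 to 0.18 for Rbpj, and KO against WT myoblasts from -0.49 to 0.12 for Hey1, -0.29 to 0.12 for Notch1, -0.24 to 0.18 for Notch2 and -0.43 to 0.022 for Notch3.

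Counts of all genes called moved by over 1.5 times as follows. With calls at 0.01 they were 1269 (from 2474) for WT and 2216 (from 3591) for KO differentiation, 1041 (from 1697) for KO against WT myoblasts, 1349 (from 2521) for myotubes and 141 (from 371) for the interaction. With log2 fold changes of 1 or more in size, the first 4 were 1259, 1994, 1018 and 1379. With sample weights, 4683 were called for WT differentiation, 3773 in myoblasts and 1221 for the interaction. A fit to only 8 samples gave 2656 in myoblasts and 1565 in myotubes. Without 1 sample, WT differentiation gave 1564 (without WT myotube replicate 1) to 2949 (without WT myotube replicate 2) and the interaction 231 (without KO myoblast replicate 1) to 521 (without KO myotube replicate 2). Members called for WT differentiation were 4 at 0.01 and 4 to 7 without 1 sample, and for the interaction 0 at 0.01, 2 with sample weights and 1 to 2 without 1 sample. Pathway genes called for the interaction (5) were 2 at 0.01, 3 with a minimum of 50, with no filter and with quantile normalization, and 3 to 7 without 1 sample. For KO differentiation (25) they were 16 at 0.01 and 13 with the fold limit, for KO against WT myotubes (20) 9, 13 and 12 to 21 without 1 sample, and with sample weights 35 for WT differentiation (18) and 24 in myoblasts (12). Quantile normalization moved the share of calls that were higher in WT myotubes from 60.1% to 49.7%.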
